A study of Homo sapiens with 12 samples.

Results

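The genes described here are the protein-coding genes of human chromosome 19 whose symbol is ZNF followed by a number and at most 1 letter. Of the 60671 genes in the count table, 246 met this rule. They make up 246 of the 508 genes named in this way in the whole genome, and the other 262 lie on other chromosomes. RNA-seq was compared among 3 human leukemia cell lines with 4 samples each. K562 is an established BCR-ABL1-positive line from a chronic myeloid leukemia and has 3 alleles of TOP2A, the gene of DNA topoisomerase IIα. K/VP.5 is an etoposide-resistant subline of K562 that was cloned after exposure to etoposide, a drug that traps topoisomerase II on DNA. K562/SSedit-2 is a clone of K562 in which CRISPR/Cas9 with homology-directed repair silenced the 5′ splice site of TOP2A intron 19 in 2 of the 3 alleles. Each derived line is 1 clone, so a difference between lines is a difference from that clone. All lines were harvested in mid-log growth, and no sample was labelled as drug-treated. Since nothing says that the 4 replicates of a line were separate cultures, the p-values below measure only the spread between these samples.

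Most of these genes encode proteins with arrays of C2H2 zinc fingers that read DNA sequence, and many also carry a KRAB box. The KRAB box recruits the scaffold protein TRIM28 (KAP1), which brings the histone methyltransferase SETDB1 and the heterochromatin protein HP1, and such complexes are best known for silencing transposable elements. The genes arose largely by tandem duplication and still sit next to each other in clusters along chromosome 19, where several clusters are themselves covered by heterochromatin marks in many cell types.

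Total counts per sample ranged from 28981722 to 43648830. The 246 genes together held between 0.22% and 0.269% of them. Values are given as CPM (counts per 1000000 counts of the TMM-scaled library), on which 3 counts correspond to 0.0691 to 0.102 CPM. TOP2A was at 402 ± 59.1 CPM in K562, 275 ± 7.5 in K/VP.5 cells and 192 ± 16 in the edited line (mean ± SD, n = 4). The erythroid markers GATA1, TAL1, KLF1, LMO2, HBG1 and HBG2 were at 109 CPM or more in every line by their means. Of the markers of other blood cells, LYZ had means of 1.44, 0.291 and 1.09 CPM in K562, in the resistant line and in the edited line, and MPO had means of 0.189, 0 and 0.212 CPM. Their part in the results was not tested. Replicate 1 of K562 stood apart from the other K562 samples (chi-square per degree of freedom over genes of 53.5 to 56.4, against 4.82 to 19.5 for all other pairs within a line), and values without it are given beside the main counts.

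Promoter windows of 6 members are shown because these members lie in 2 clusters and took opposite courses in the 3 lines. The windows are from RefSeq on GRCh38.p14, reach from 250 bases before to 50 bases after the start of the gene, and read 5′ to 3′ on the strand of the gene. The first set comes from the cluster of chromosome 19 that runs from ZNF101 to ZNF254. ZNF254 (window chr19:24086937-24087236, plus strand, within the longer GENCODE gene) was gained in K/VP.5. ZNF714 (window chr19:21081953-21082252, plus strand) was largely lost in K/VP.5. ZNF724 (window chr19:23250345-23250644, minus strand) was lost in K562/SSedit-2. Capitals mark the longest run of letters that the 3 windows share, which is 24 bases long and spans the start site.
ZNF254: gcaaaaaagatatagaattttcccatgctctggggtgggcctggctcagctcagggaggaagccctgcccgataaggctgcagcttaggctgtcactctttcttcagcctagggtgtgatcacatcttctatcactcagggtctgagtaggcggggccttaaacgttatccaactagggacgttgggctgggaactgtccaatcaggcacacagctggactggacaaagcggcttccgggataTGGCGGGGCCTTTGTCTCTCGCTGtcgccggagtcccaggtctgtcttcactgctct
ZNF714: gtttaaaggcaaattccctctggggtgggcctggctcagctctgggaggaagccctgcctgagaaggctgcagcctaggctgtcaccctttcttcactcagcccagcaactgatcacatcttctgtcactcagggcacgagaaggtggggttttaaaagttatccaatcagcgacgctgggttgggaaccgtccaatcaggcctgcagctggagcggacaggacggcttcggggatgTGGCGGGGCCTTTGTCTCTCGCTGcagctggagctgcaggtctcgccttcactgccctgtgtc
ZNF724: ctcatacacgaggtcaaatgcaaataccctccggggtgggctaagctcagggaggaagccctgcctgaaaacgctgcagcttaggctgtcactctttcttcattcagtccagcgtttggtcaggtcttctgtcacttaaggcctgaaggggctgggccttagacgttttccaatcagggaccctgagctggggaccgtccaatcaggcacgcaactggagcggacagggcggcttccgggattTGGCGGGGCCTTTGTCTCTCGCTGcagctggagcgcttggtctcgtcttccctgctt
Searched on both strands, the run TGGCGGGGCCTTTGTCTCTCGCTG was present in 5 of 15326 windows of protein-coding genes (0.0326%). Of these, 4 were windows of the chromosome 19 genes and lay in the same cluster, and the fifth belonged to a ZNF gene on another chromosome. The fourth chromosome 19 gene with the run was ZNF85, which had at most 3 counts in every sample of all lines. Genes with this identical run were thus found gained, largely lost and at no more than 3 counts per sample in K/VP.5. The run was chosen after the values of these genes had been seen.

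The second set comes from the cluster that runs from ZNF264 to ZNF446. ZNF264 (window chr19:57191250-57191549, plus strand) and ZNF551 (window chr19:57681727-57682026, plus strand) were gained in K/VP.5. ZNF671 (window chr19:57727575-57727874, minus strand) is transcribed from the opposite strand close to ZNF551 and fell in K/VP.5. Capitals mark CTTCCGG, the letters at the core of many binding sites of ETS-family transcription factors.
ZNF264: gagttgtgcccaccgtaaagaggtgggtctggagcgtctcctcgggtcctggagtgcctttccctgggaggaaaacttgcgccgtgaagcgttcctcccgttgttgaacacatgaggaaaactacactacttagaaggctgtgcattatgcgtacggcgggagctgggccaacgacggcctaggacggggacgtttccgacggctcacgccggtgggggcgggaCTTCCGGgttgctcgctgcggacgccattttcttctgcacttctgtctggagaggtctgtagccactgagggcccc
ZNF551: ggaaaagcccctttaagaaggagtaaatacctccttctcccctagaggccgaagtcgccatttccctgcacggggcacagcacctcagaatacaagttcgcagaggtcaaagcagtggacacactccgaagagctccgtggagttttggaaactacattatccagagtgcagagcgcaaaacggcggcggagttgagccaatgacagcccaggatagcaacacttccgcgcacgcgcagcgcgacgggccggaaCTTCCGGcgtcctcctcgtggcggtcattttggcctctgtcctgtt
ZNF671: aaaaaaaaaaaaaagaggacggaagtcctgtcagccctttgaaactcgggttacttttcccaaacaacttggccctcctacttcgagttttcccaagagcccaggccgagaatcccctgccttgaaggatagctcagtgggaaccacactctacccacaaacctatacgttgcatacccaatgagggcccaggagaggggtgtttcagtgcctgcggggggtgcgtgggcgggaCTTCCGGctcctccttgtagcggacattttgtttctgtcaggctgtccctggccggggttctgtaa
The CTTCCGG letters were chosen after the windows and the values were seen. On either strand, they were present in 98 of the 216 member windows that the RefSeq table holds (45.4%), in 73 of 213 windows of ZNF genes of other chromosomes (34.3%) and in 2208 of 15326 windows of protein-coding genes (14.4%). Within the members it was present in 9 of 15 genes gained in K/VP.5 and in 47 of 111 genes expressed in all lines. It was also present in 20 of 41 genes with at most 3 counts in every sample. Of the members called higher in K/VP.5 relative to K562 it was present in 22 of 39 (56.4%), and of those called lower in 3 of 10 (30%). By cluster it ranged from 2 of 24 windows from ZNF653 to ZNF791 to 21 of 29 windows from ZNF101 to ZNF254 among the clusters with more than 5 windows. These letters contain 1 CG dinucleotide, which is counted again in the CG values given further on. A match of letters is a description and not a binding site.

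To see how many of the genes each line used, a gene was counted as on at a mean of 1 CPM or more and as at the floor when every sample of a line had 3 counts or fewer. K562 had 133 of the 246 genes on (54.1%), K/VP.5 had 147 (59.8%) and K562/SSedit-2 had 129 (52.4%). At the floor were 90 genes in K562, 58 in K/VP.5 cells and 94 for K562/SSedit-2. Without K562 replicate 1, K562 again had 133 on and 90 at the floor. Between K562 and K/VP.5, 36 genes left the floor and 4 reached it. A total of 123 genes were on in all lines and 52 were at the floor in all lines. Per kilobase of exon, ZNF146, ZNF121 and ZNF581 had the highest mean levels over all samples, at 29.4, 27.9 and 20.7 CPM per kb. ZNF146 encodes a protein made almost only of zinc fingers. None of them was called in any comparison, with ZNF146 at 121, 118 and 126 CPM, ZNF121 at 187, 214 and 205 CPM and ZNF581 at 33.9, 39.9 and 27.9 CPM in the order K562, K/VP.5 cells and then K562/SSedit-2. In bulk samples, fewer cells with a transcript and less of it per cell cannot be told apart.

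Set against K562 cells, K/VP.5 cells had 43 members higher and 11 lower by at least 2-fold at a false discovery rate of 10% (edgeR's quasi-likelihood test, Benjamini-Hochberg adjusted over 18626 genes). Over all genes tested, 8.98% were higher and 6.66% lower by the same rule. Counted over every gene on the list whether tested or not, 17.5% of the 246 members and 6.19% of all protein-coding genes were higher. Without K562 replicate 1, 45 members were higher and 11 lower. The filter on low counts let through 171 members and left out 75. Of those that passed, 27 did so only through K/VP.5, so that they had to differ, and all 27 were among the 43. Of the other 144, 16 were higher and 11 lower, with a median log2 fold change of 0.22. The values of all 54 called members did not overlap between the lines, as was so for 93.9% of all called genes and 43% of all genes tested. The median log2 fold change of the tested members was 0.30, against 0.01 over all genes tested, 0.09 over tested ZNF genes of other chromosomes and 0.05 over the other tested protein-coding genes of chromosome 19. Among the ZNF genes of other chromosomes, 23 were higher and 9 lower.

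A set of 15 genes was gained in full, being at the floor in K562 and on in K/VP.5. With limits chosen after seeing the data, the number was 2 when the floor meant 0 counts, 18 when it meant 10, 9 when on meant 2 CPM and 21 when it meant 0.5 CPM. The 15 genes were ZNF558, ZNF91, ZNF254, ZNF567, ZNF850, ZNF420, ZNF527, ZNF569, ZNF264, ZNF548, ZNF772, ZNF773, ZNF550, ZNF551 and ZNF329. They were 6.1% of the members, whereas 57 of 19911 protein-coding genes met the same rule (0.286%), as did 2 of 262 ZNF genes of other chromosomes (0.763%) and 0 of 1205 other protein-coding genes of chromosome 19. In the opposite direction, on in K562 and at the floor in K/VP.5, 0 members and 27 protein-coding genes were found (0.136%). Without K562 replicate 1 the numbers of members were again 15 and 0. None of the 15 genes was on in K562/SSedit-2, where all were at the floor as well.

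ZNF850 (ENSG00000267041, chr19:36714383-36772825, minus strand) had 0 counts in every K562 and every K562/SSedit-2 sample. In K/VP.5 it was at 9.07, 9.47, 9.18 and 8.88 CPM (9.15 ± 0.247, mean ± SD, n = 4). All K/VP.5 samples were thus high and close to each other. With 1298 counts against 0 in K562, its level was at least 483-fold higher against a limit of 3 counts over the line, and at least 424-fold higher than in K562/SSedit-2. No p is given for the 15 genes, since the rule that chose them sets the lines apart.

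ZNF551 (ENSG00000204519, chr19:57681969-57717301, plus strand) was at 22.6, 19.6, 19.2 and 18.4 CPM in K/VP.5 (19.9 ± 1.84). It had 0 counts in 3 K562 samples and 1 count, 0.0243 CPM, in the other, and in K562/SSedit-2 it was at 0, 0, 0.0625 and 0 CPM. The K/VP.5 samples did not overlap those of either other line, which for K562 largely follows from the rule that chose the gene. The 2846 counts in K/VP.5 against 1 in K562 gave a ratio of 3180 per library (exact 95% interval 570 to 126000, counting error only).

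ZNF558 (ENSG00000167785, chr19:8806170-8832314, minus strand) was at 17.0, 21.1, 20.7 and 18.0 CPM in K/VP.5 (19.2 ± 2.03). K562 had 1 count in 1 sample (0.023 CPM) and K562/SSedit-2 had 0 in all. Its ratio of summed counts was 3040 against K562 (545 to 120000) and at least 889-fold against K562/SSedit-2. ZNF558 was the only one of the 15 genes in the cluster from ZNF414 to ZNF846.

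ZNF254 (ENSG00000213096, chr19:24033405-24129968, plus strand) and ZNF91 (ENSG00000167232, chr19:23304991-23395471, minus strand) lie in the cluster from ZNF101 to ZNF254. ZNF254 was at 13.1, 11.6, 12.6 and 11.3 CPM in K/VP.5 (12.1 ± 0.825) and had 1 count in K562 and 1 in K562/SSedit-2. That was a ratio of 1930 against K562 (346 to 76200). ZNF91 encodes a repressor of SVA retrotransposons with 32 zinc fingers by the pattern used here, and it was at 1.42, 1.68, 0.985 and 1.32 CPM in K/VP.5 (1.35 ± 0.286). With 193 counts in K/VP.5 against 4 in K562, its ratio was 53.9 (20.7 to 200). All K/VP.5 values of both genes lay above all values of the other lines, which for K562 largely follows from the rule that chose them.

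The other gained genes were separated from both lines in the same way, which for K562 largely follows from the rule that chose them. ZNF264 (ENSG00000083844) was at 7.02, 5.67, 5.42 and 5.83 CPM in K/VP.5 (5.98 ± 0.713), with 853 counts against 3 in K562 (ratio 317, 108 to 1540) and 0 in K562/SSedit-2. ZNF420 (ENSG00000197050), known as a regulator of p53 under the name Apak, was at 4.3, 3.51, 2.81 and 3.22 CPM in K/VP.5 (3.46 ± 0.629) with 2 counts in K562 and 0 in K562/SSedit-2. ZNF527 (ENSG00000189164) was at 1.97, 1.49, 1.33 and 1.39 CPM in K/VP.5 (1.55 ± 0.292) and had 0 counts in K562, so that its level was at least 82.6-fold higher. Means in K/VP.5 for the rest were 3.70 CPM for ZNF329, 3.38 for ZNF567, 2.77 for ZNF569, 1.89 for ZNF548, 1.30 for ZNF773, 1.25 for ZNF772 and 1.02 for ZNF550. Their ratios of counts against K562 ran from 28.2 for ZNF772 (13.4 to 71.2) to 443 for ZNF569 (79.1 to 17500). In the plot by sample, no K562 or K562/SSedit-2 point of any of the 15 genes reached 0.1 CPM. This follows from the floor, since 3 counts were at most 0.0825 CPM in K562 and 0.0938 CPM in K562/SSedit-2.

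**Figure D1:**
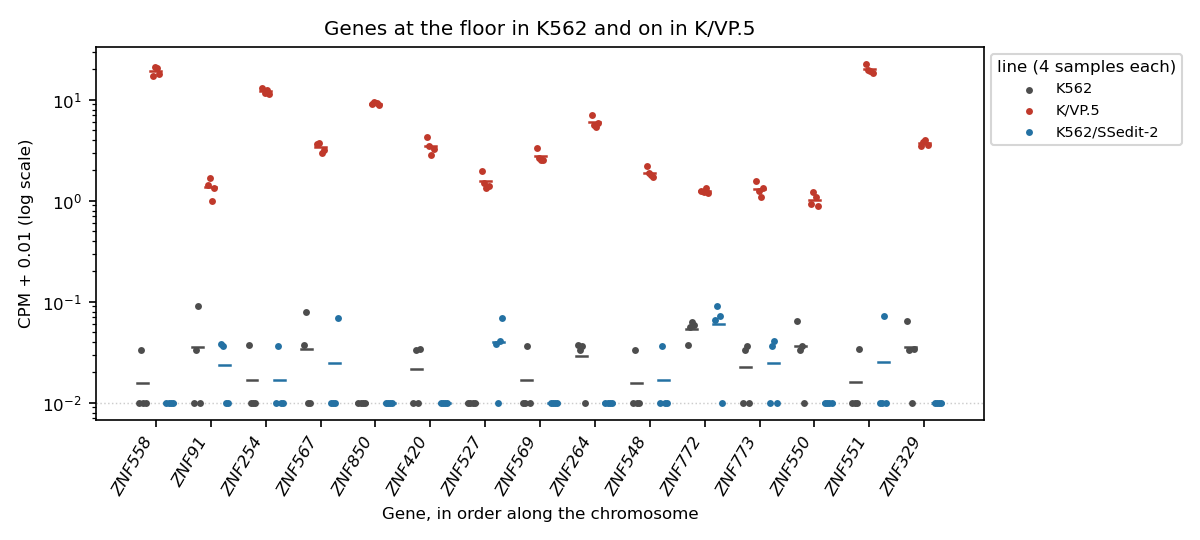
Level of each of the 15 genes at the floor in K562 and on in K/VP.5, as CPM + 0.01 on a log scale, in order along chromosome 19. Each point is 1 sample, 4 per line, and bars are means; the red K/VP.5 points lie near 1 to 20 CPM while the K562 and K562/SSedit-2 points sit at or near the dotted line of 0 counts.

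Of the 11 members lower in K/VP.5 cells than K562 cells, ZNF714 (ENSG00000160352) changed most. It was at 44.5, 44.3, 44.7 and 38.2 CPM in K562 (42.9 ± 3.14) and at 1.17, 1.14, 1.22 and 1.32 CPM in K/VP.5 (1.21 ± 0.0776). K562/SSedit-2 was at 32.6, 35.1, 37.6 and 35.7 CPM (35.2 ± 2.06), below all K562 samples but by less than 2-fold. The samples of K/VP.5 thus lay far below those of both other lines. The log2 fold change was -5.15 (SE 0.10), a 35.4-fold lower level, with an adjusted p of 1.56e-15 (edgeR's quasi-likelihood test, Benjamini-Hochberg).

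ZNF671 (ENSG00000083814, chr19:57719751-57727624, minus strand) was at 4.89, 5.13, 5.65 and 5.76 CPM in K562 (5.36 ± 0.414) and at 0.2, 0.239, 0.174 and 0.136 CPM in K/VP.5 (0.187 ± 0.0437). In K562/SSedit-2 it was at 7.39, 7.45, 7.32 and 7.40 CPM (7.39 ± 0.0536). The log2 fold change in K/VP.5 was -4.79 (SE 0.17), 27.7-fold lower, with an adjusted p of 9.84e-13 (edgeR's quasi-likelihood test, Benjamini-Hochberg). ZNF671 is the only member of its cluster that was lower, and its neighbours ZNF551 and ZNF154 were both higher. Both neighbours lay below the filter level in every K562 sample and passed it through K/VP.5, so they had to be higher. The start of ZNF154 also lies within the span of ZNF551, on the opposite strand. Whether strand was used in counting is not given, so the counts of ZNF154 carry that uncertainty. ZNF154 and ZNF671 are both known as genes whose promoters are often methylated in tumours. ZNF154, chosen after its values were seen, was at 0, 0.046, 0 and 0 CPM in K562 and at 0.5, 0.718, 0.869 and 0.576 CPM in K/VP.5. The K562 and K/VP.5 values did not overlap for ZNF671 or for ZNF154, and for ZNF154 the filter sets this.

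The remaining falls were smaller. ZNF577, ZNF649 and ZNF613 are consecutive members of the cluster from ZNF175 to ZNF331 and fell together, from 1.63 ± 0.291 to 0.52 ± 0.0777 CPM for ZNF577, from 1.93 ± 0.198 to 0.482 ± 0.0999 CPM for ZNF649 and from 2.19 ± 0.503 to 0.375 ± 0.118 CPM for ZNF613 (n = 4 each). Their log2 fold changes were -1.64, -1.98 and -2.53. In K562/SSedit-2 these genes were at 1.90 ± 0.143, 2.73 ± 0.359 and 2.69 ± 0.541 CPM, and none was called against K562. ZNF493 fell from 6.23 ± 0.755 to 1.92 ± 0.376 CPM, ZNF529 from 10.6 ± 0.965 to 4.19 ± 0.799 CPM and ZNF69 from 1.65 ± 0.132 to 0.414 ± 0.0636 CPM. Of the 11 lower members, 9 were also called lower there relative to K562/SSedit-2. ZNF573 was lower than in that line too, at 1.11 against 1.70 CPM without overlap, but by less than 2-fold, and ZNF724 was higher than in that line. ZNF563 was the lower member that the naming rule left out for its low level, at 0.50 CPM in K562 and 0.121 in K/VP.5.

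Between K562/SSedit-2 and K562 cells, 1 member was higher and 5 were lower in the edited line by the same rule, against 0.805% of all tested genes higher and 1.26% lower. Without K562/SSedit-2 replicate 2, 3 members were higher, since ZNF527 and ZNF585B were then called as well. Both added calls rested on low levels. Over all samples, ZNF527 was at the floor in each of these lines, with 4 counts for the edited line against 0 for K562. The mean of ZNF585B rose from 0.0705 to only 0.199 CPM. Their adjusted p-values without that replicate were 0.0804 and 0.0559 (edgeR's quasi-likelihood test, Benjamini-Hochberg), so these added calls are not firm. Without K562 replicate 1 the counts were again 1 and 5. The values of all 6 did not overlap between the lines, as was so for 87% of all called genes and 13.2% of all genes tested. The median log2 fold change of the tested members was 0.05, against -0.01 over all genes tested. The gene that rose was ZNF530 (ENSG00000183647). It was at 0.357, 0.253, 0.215 and 0.413 CPM in K562, at 1.62, 0.857, 1.34 and 1.37 CPM in K562/SSedit-2 (log2 fold change 2.05, SE 0.24) and at 10.0, 10.6, 10.4 and 9.15 CPM in K/VP.5 (5.00, SE 0.21). The lines thus followed each other without overlap, with K562/SSedit-2 in between, and the adjusted p was 3.52e-05 in K562/SSedit-2 and 9.65e-12 in K/VP.5 (edgeR's quasi-likelihood test, Benjamini-Hochberg). Both comparisons share the K562 samples.

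ZNF724 (ENSG00000196081) was the only member on in K562 and at the floor in K562/SSedit-2. It was at 1.21, 1.93, 1.48 and 1.31 CPM in K562, at 0.475, 0.532, 0.434 and 0.644 CPM in K/VP.5 and at 0, 0, 0 and 0.0597 CPM in K562/SSedit-2. Its 237 counts in K562 against 2 in K562/SSedit-2 gave a ratio of 104 (28.5 to 863). The rule that chose it sets these lines apart, so no p is given, and 3 of 19911 protein-coding genes met the same rule (0.0151%). K/VP.5 cells had a lower level too, with a log2 fold change of -1.52 (SE 0.27). Of its exon bases, 44.7% are shared with another annotated gene on the same strand, so its counts carry that uncertainty.

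ZNF573 (ENSG00000189144) fell in both derived lines, from 3.13, 3.94, 3.98 and 4.04 CPM in K562 to 1.34, 1.58, 1.75 and 2.15 CPM in K562/SSedit-2 (log2 fold change -1.15, SE 0.16) and to 1.00, 1.17, 1.10 and 1.15 CPM in K/VP.5 (-1.77, SE 0.17). ZNF813 and ZNF525 lie in the cluster from ZNF175 to ZNF331 and moved in opposite directions in the derived lines. ZNF813 (ENSG00000198346) was at 1.26, 0.875, 1.05 and 1.14 CPM in K562, 5.35, 5.80, 5.68 and 4.54 CPM in K/VP.5 and 0.223, 0.482, 0.25 and 0 CPM in K562/SSedit-2. ZNF525 (ENSG00000203326) was at 2.42, 2.21, 3.04 and 2.36 CPM in K562, 4.82, 6.14, 6.08 and 4.78 CPM in K/VP.5 and 0.837, 0.83, 0.751 and 0.835 CPM in K562/SSedit-2. For both genes every K/VP.5 sample was above, and every K562/SSedit-2 sample below, all K562 samples. Their log2 fold changes between K562/SSedit-2 and K562 cells were -2.13 (SE 0.40) and -1.62 (SE 0.17), with adjusted p-values of 0.0029 and 1.09e-05 (edgeR's quasi-likelihood test, Benjamini-Hochberg).

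The fifth gene called lower, ZNF134, rested on 9 counts in K562 against 1 in K562/SSedit-2, with an adjusted p of 0.0955 (edgeR's quasi-likelihood test, Benjamini-Hochberg). It was called in only 6 of the 16 alternative fits, and under a block for the replicate number its adjusted p was 0.107, so this call is not firm. The other 5 calls were made in all 16. In K/VP.5 the same gene was far above both lines, at 5.02, 3.40, 4.40 and 4.27 CPM. The lines K562/SSedit-2 and K/VP.5 differed in 52 members, with 43 lower and 9 higher in K562/SSedit-2, against 9.62% and 6.2% of all tested genes. Of the 43, 27 passed the filter only through K/VP.5 and had to be lower, and the other 144 tested members held 16 lower and 9 higher. On in K/VP.5 and at the floor in K562/SSedit-2 were 17 members, the 15 genes above with ZNF419 and ZNF134, against 81 of 19911 protein-coding genes (0.407%).

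**Figure D2:**
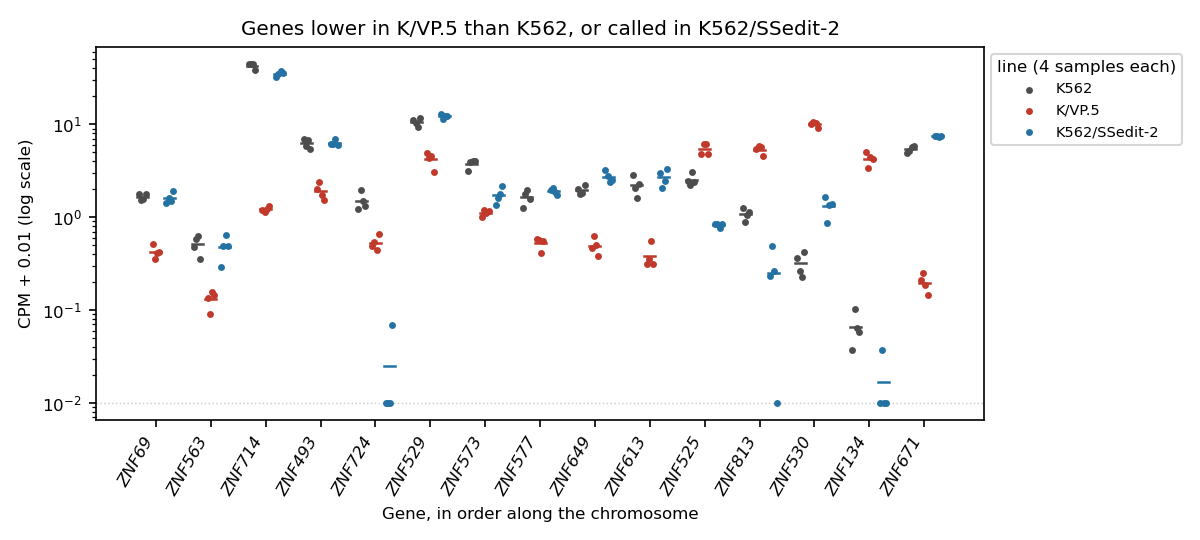
Level of the members lower in K/VP.5 cells than K562 cells and of those called between K562/SSedit-2 and K562, as CPM + 0.01 on a log scale, in order along chromosome 19. Each point is 1 sample, 4 per line, and bars are means; K/VP.5 lies lowest for ZNF714 (1.21 CPM) and ZNF671 (0.187 CPM), and K562/SSedit-2 lies lowest for ZNF724, ZNF525, ZNF813 and ZNF134.

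To compare the genes by position, they were divided into clusters of at least 5 members with gaps of at most 500 kb. This gave 10 clusters with 232 members and left 14 members outside. The 2 clusters with the most calls lay on the long arm. From ZNF264 to ZNF446 (chr19:57191500-58481230, 1.29 Mb), near the end of the chromosome, 18 of 43 members were higher in K/VP.5 than in K562 and 1 was lower, with a median log2 fold change of 1.01 over the 36 tested. Of these 36, 12 passed the filter only through K/VP.5 and had to be higher, and over the other 24 the median was 0.56, with 6 higher and 1 lower. From ZNF565 to ZNF573 (chr19:36182276-37817300, 1.64 Mb), 11 of 26 were higher and 2 lower, with a median of 2.06 over the 18 tested. Here 8 of the 18 passed only through K/VP.5, and over the other 10 the median was 0.28, with 3 higher and 2 lower. Without K562 replicate 1, the higher and lower members were 19 and 1 in the former cluster and 11 and 2 in the latter. These clusters held 29 of the 43 higher members and 12 of the 15 gained genes.

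The other 8 clusters had between 0 and 4 higher members each. Some were near the 8.98% higher over all genes tested. Of the tested members, 7.41% were higher from ZNF175 to ZNF331 and 10.5% from ZNF653 to ZNF791. From ZNF414 to ZNF846 and from ZNF628 to ZNF835 it was 9.09% each. The cluster from ZNF101 to ZNF254 had 4 higher and 3 lower of 37, with a median of 0.07, and contained 17 of the 52 genes at the floor in all lines. All 4 higher members passed the filter only through K/VP.5, and over the other 14 tested the median was -0.08. From ZNF175 to ZNF331, 2 of 39 were higher and 3 lower, with a median of 0.30. From ZNF653 to ZNF791, 2 of 25 were higher and 2 lower. The clusters from ZNF414 to ZNF846, from ZNF302 to ZNF792 and from ZNF628 to ZNF835 had 1 higher member each, and that from ZNF575 to ZNF180 had 2. The 2 higher members from ZNF575 to ZNF180 and the 1 from ZNF414 to ZNF846 passed the filter only through K/VP.5 as well. The cluster from ZNF554 to ZNF77 had 0 called members of 5. Outside the clusters only ZNF780B was called, with a log2 fold change of 1.13. Members of a cluster share position and sequence, and they are not replicates of each other.

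**Figure D3:**
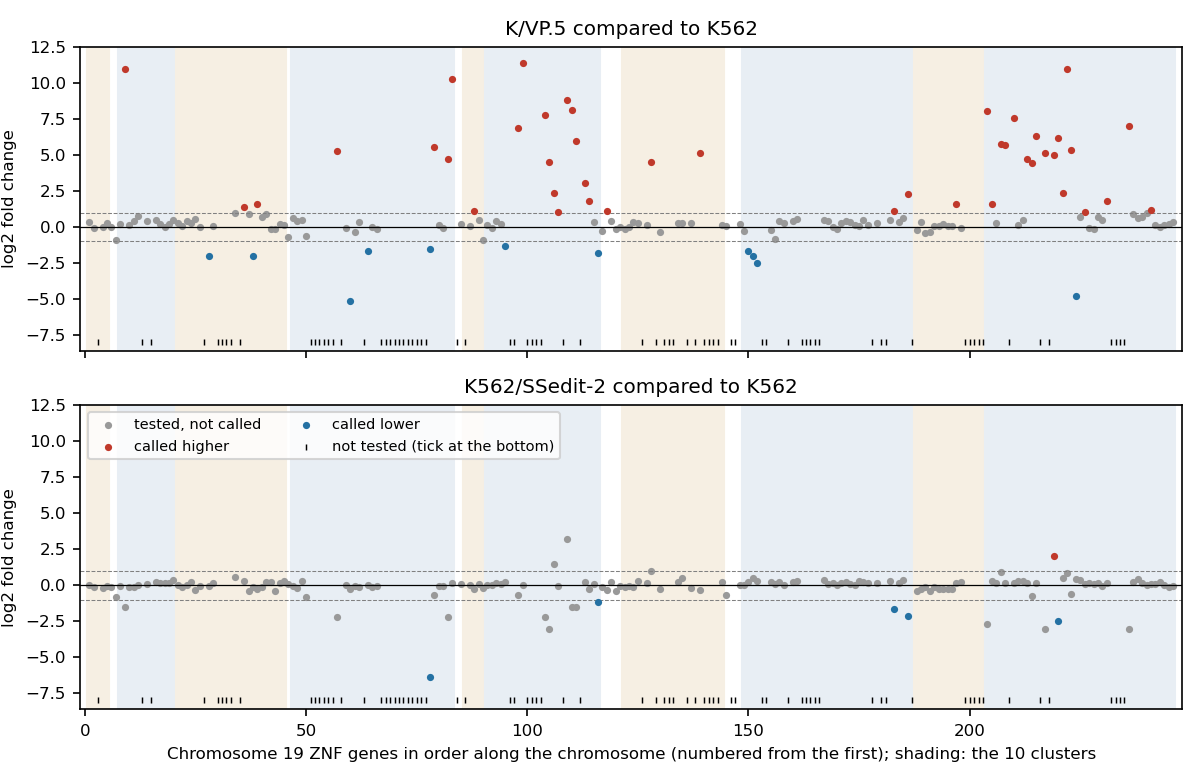
Log2 fold change of each tested member in K/VP.5 compared to K562 (top) and in K562/SSedit-2 compared to K562 (bottom), against the rank of the gene along chromosome 19 from 1 to 246. Shading marks the 10 clusters, dashed lines a 2-fold change and ticks the members not tested; the 43 higher genes of the top panel gather mostly from ZNF565 to ZNF573 and from ZNF264 to ZNF446, and 6 genes are called in the bottom panel.

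**Figure D4:**
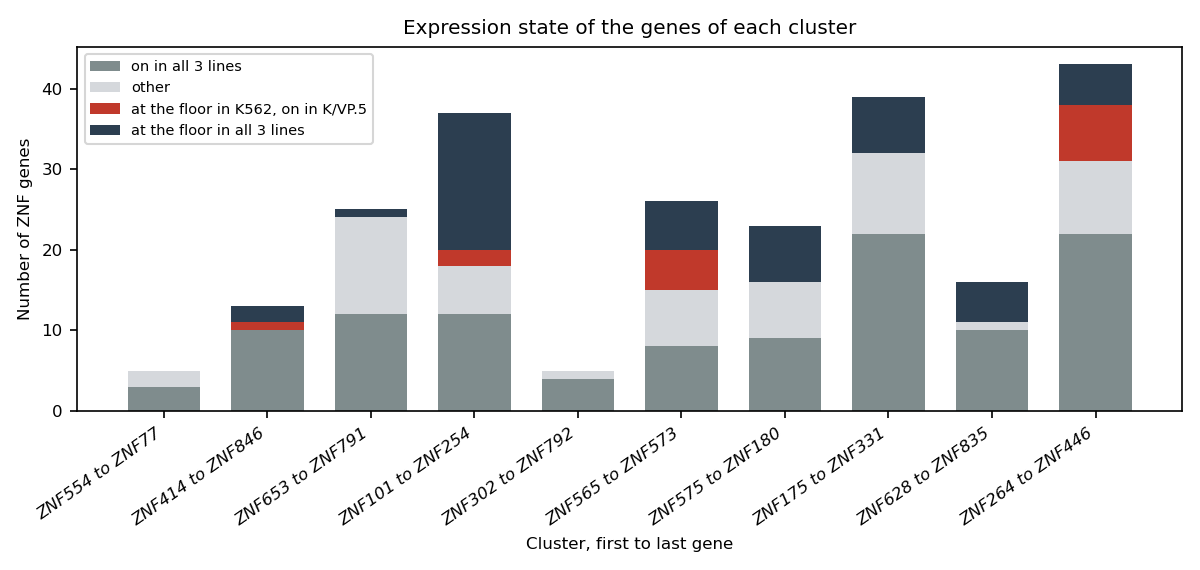
Number of members in each cluster that were on in all 3 lines, at the floor in K562 and on in K/VP.5, at the floor in all 3 lines, or in any other state. The genes gained in K/VP.5 (red) number 7 from ZNF264 to ZNF446, 5 from ZNF565 to ZNF573, 2 from ZNF101 to ZNF254 and 1 from ZNF414 to ZNF846.

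Within the cluster from ZNF264 to ZNF446, 15 members were at the floor in K562, 6 in K/VP.5 cells and 18 for K562/SSedit-2. The number of members on was 23, 33 and 24. The longest run of neighbours with the same call along the chromosome was in this cluster and held 5 consecutive members, ZNF530, ZNF134, ZNF211, ZNF551 and ZNF154, all higher in K/VP.5. ZNF772, ZNF419 and ZNF773 formed a second run of 3. Except for ZNF530 and ZNF211, the members of these runs lay below the filter level in every K562 sample. They passed the filter through K/VP.5 and had to be higher. ZNF419 was at 1.52, 1.25, 1.68 and 1.39 CPM in K/VP.5 and between 0.0275 and 0.122 CPM in K562. The genes of this span without a zinc finger symbol were few, with 6 of 17 tested. Of these, 2 were higher (33.3%, against 8.98% of all genes tested) and 0 lower in K/VP.5. Their median log2 fold change was 0.62.

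In the cluster from ZNF565 to ZNF573, 15 members were at the floor in K562, 7 in K/VP.5 cells and 14 for K562/SSedit-2, and 6 remained at the floor in all lines. Runs of neighbours that were higher in K/VP.5 were ZNF420, ZNF585A, ZNF585B and ZNF383, and ZNF527, ZNF569 and ZNF570. At least the gained genes among them, ZNF420, ZNF527 and ZNF569, passed the filter only through K/VP.5 and had to be higher. ZNF529 and ZNF573 were the lower members, so that genes gained and genes reduced lay within the same 1.64 Mb. No gene of this span without a zinc finger symbol passed the filter. The only other run of at least 3 neighbours was that of the lower genes ZNF577, ZNF649 and ZNF613.

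Summed over each cluster, the lines differed by less. From ZNF264 to ZNF446 the summed level was 369 ± 12.2 CPM in K562, 532 ± 8.71 in K/VP.5 cells and 400 ± 15.7 for K562/SSedit-2 (n = 4 each), a ratio of 1.44 for K/VP.5 and 1.08 for K562/SSedit-2. The K562 samples ranged from 351 to 378 CPM and the K/VP.5 samples from 520 to 540, so the lines did not overlap. From ZNF565 to ZNF573 the sums were 167 ± 8.18, 187 ± 6.26 and 172 ± 13.8 CPM. From ZNF101 to ZNF254 the sum was lower in K/VP.5, at 151 ± 2.85 against 174 ± 8.99 CPM. This rested on ZNF714, left out after its values were seen, without which the sum was higher in K/VP.5, at 150 ± 2.78 against 131 ± 6.11 CPM. From ZNF628 to ZNF835 it was 243 ± 33.8 CPM in K562/SSedit-2 against 294 ± 22.8 in K562, and the samples of these lines overlapped at 272 and 270 CPM. Between samples with the same replicate number, which was taken to pair these lines, it was lower in the edited line in 4 of 4 pairs, as was the sum from ZNF101 to ZNF254. The sums from ZNF414 to ZNF846 and from ZNF264 to ZNF446 were higher in the edited line in 4 of 4 pairs, the latter without overlap between the lines. Over all 246 members the sums were 2250 ± 73.5, 2600 ± 3.62 and 2280 ± 47.8 CPM in K562, in the resistant line and in the edited line.

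**Figure D5:**
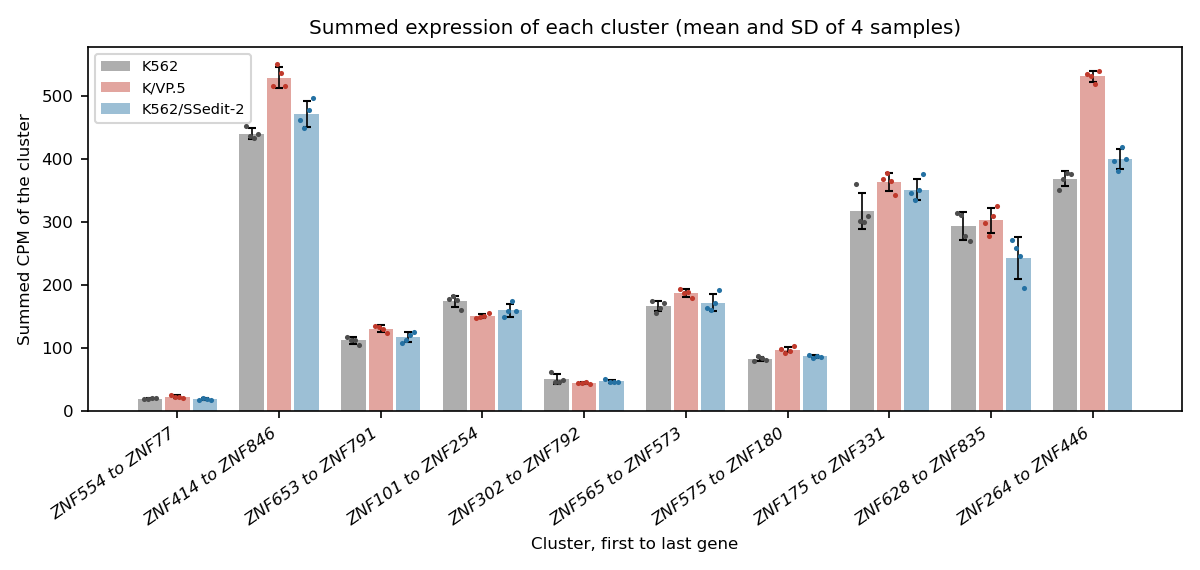
Summed level of the members of each cluster in CPM, with bars for the mean of 4 samples per line, error bars for the SD and points for the samples. By its mean, K/VP.5 lies highest in all clusters except from ZNF101 to ZNF254 and from ZNF302 to ZNF792. From ZNF264 to ZNF446 it is at 532 CPM against 369 in K562, and from ZNF414 to ZNF846 at 530 against 441.

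The genes on in all lines passed the filter on low counts in each of them. Of these 123 genes, 9 were higher (7.32%) and 4 lower (3.25%) in K/VP.5 relative to K562. Over all genes tested the shares were 8.98% and 6.66%, and over the 10601 protein-coding genes on in all lines they were 4.15% and 4.67%, with a median log2 fold change of -0.04. Of the 123 values, 93 were above 0 and 30 below, and the median was 0.24 (quartiles 0.01 and 0.44). From ZNF264 to ZNF446, 22 genes were on in all lines, of which 20 had a log2 fold change above 0 and 5 were called higher, with a median of 0.56. From ZNF565 to ZNF573 the median of the 8 such genes was 0.16. From ZNF101 to ZNF254 it was -0.04 over 12 genes. Between K562/SSedit-2 and K562, 0 of the 123 genes were higher and 1, ZNF573, was lower in the edited line, and the median was 0.06. In that comparison the 22 genes from ZNF175 to ZNF331 all had log2 fold changes above 0, with a median of 0.18, and 9 of the 10 genes from ZNF628 to ZNF835 had values below 0, with a median of -0.24. Genes without a zinc finger symbol in the latter span had a median of -0.19 over 8 tested, and those in the former one of -0.16 over 5. Over the other 834 tested protein-coding genes of chromosome 19 the median was -0.18, with 679 values below 0. None of these 32 members was called.

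ZNF274, chosen after its values were seen, encodes a protein that binds the 3′ ends of many zinc finger genes and recruits SETDB1 there. It was at 21.9 CPM in K562, 40.1 in K/VP.5 cells and 25.3 for K562/SSedit-2. Its log2 fold change in K/VP.5 was 0.88 with an adjusted p of 4.1e-07 (edgeR's quasi-likelihood test, Benjamini-Hochberg), below the 2-fold limit. The members nearest to that limit between K/VP.5 and K562 cells were ZNF383 (1.06) inside and ZNF20 (0.97) outside for the higher genes, and ZNF529 (-1.33) inside and ZNF358 (-0.89) outside for the lower genes, all as log2 fold changes. These are members whose adjusted p was under 0.10. Among such members, the nearest outside between K562/SSedit-2 and K562 were ZNF225 (0.51) and ZNF358 (-0.84). Between K562/SSedit-2 and K/VP.5, ZNF529 (1.53) and ZNF837 (-1.10) were inside and ZNF432 (0.93) and ZNF586 (-0.98) outside.

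Features of the encoded proteins and promoters were compared as descriptions. A KRAB box was found by sequence pattern in 191 of 246 members (77.6%), in 13 of the 15 gained genes (86.7%), in 41 of the 52 genes at the floor in all lines (78.8%) and in 87 of the 123 genes on in all lines (70.7%). The gained genes without a match were ZNF329 and ZNF567, and a pattern can miss diverged boxes. The median number of zinc fingers was 13 over all members (range 1 to 39), 13 in the gained genes (8 to 32), 13 in the genes at the floor in all lines and 12 in those on in all lines. The median number of CG dinucleotides per promoter window was 22 in the gained genes, 17 in the genes at the floor in all lines, 22 in the genes on in all lines and 22 over 15326 windows of protein-coding genes (quartiles 9 and 32). At least 1 CG was present in 216 of 216 member windows and in 98.1% of all windows. Of the windows printed above, ZNF264 had 23 CG, ZNF551 22, ZNF724 14, ZNF671 11, ZNF254 10 and ZNF714 10. The windows of the gained genes held 10 to 34 CG, within the 2 to 49 of all members.

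Genes of the KRAB corepressor complex and other genes of chromatin silencing were looked at together in the same fit. Of 29 such genes, 2 were higher (6.9%, against 8.98% of all genes tested) and 0 lower in K/VP.5 relative to K562, with a median log2 fold change of 0.01, and 0 were called between K562/SSedit-2 and K562, with a median of -0.03. The higher genes were DNMT3A, a DNA methyltransferase, from 64.7 ± 8.32 to 170 ± 6.44 CPM (log2 fold change 1.39, SE 0.09, adjusted p 2.17e-09), and EHMT1, a histone H3 lysine methyltransferase, from 45.3 ± 1.65 to 113 ± 6.05 CPM (1.32, SE 0.062, adjusted p 3.88e-11), (edgeR's quasi-likelihood test, Benjamini-Hochberg). TRIM28, the KRAB scaffold, was at 932, 949 and 824 CPM and SETDB1 at 57.8, 58.3 and 56.1 CPM in K562, in the resistant line and in the edited line. The HP1 genes CBX1, CBX3 and CBX5 had log2 fold changes of -0.31, 0.00 and 0.26 in K/VP.5. None of TRIM28, SETDB1 and the HP1 genes was called in any comparison. The part of any of these genes in the changes of the members was not tested.

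Related sequence and overlapping annotation limit some single values. By exact 75-base words of their transcripts, 153 members shared no word with any gene apart from those that overlap them, and 7 shared over 10% of theirs, the highest being ZNF98 with 29.2%. Within the calls, ZNF417, chosen after its values were seen, shared 22.9% of its words with ZNF587. From K562 to K/VP.5 cells, ZNF417 went from 3.82 to 13.1 CPM and ZNF587 from 27.8 to 38.7 CPM. ZNF585B shared 11.4% of its words with ZNF585A, and both were called higher in K/VP.5. Exon bases on the opposite strand of another gene made up 24% of ZNF529 and 10.2% of ZNF573, and exon bases shared on the same strand made up 22.9% of ZNF773. Whether strand was used in counting is not given in the sources used here, so reads from such overlaps cannot be told apart.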

How the data were processed

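RNA of 12 samples was sequenced as paired-end libraries, with 4 samples of K562, 4 of K/VP.5 cells and 4 of the edited clone K562/SSedit-2. The authors mapped reads to GRCh38 with HISAT2 and deposited unnormalized whole-number counts per Ensembl gene from featureCounts. The annotation release, strand setting and handling of multiply mapped reads are not given in the sources used here. GENCODE 44 supplied symbols, types and positions for 60401 of 60671 gene IDs. Finger and KRAB patterns were read in translated GENCODE canonical transcripts, in place of the planned RefSeq proteins, and promoter windows came from RefSeq.

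Counts were fitted across all samples by line in R 4.3.3 with edgeR 4.0.16 (filterByExpr with a minimum count of 10, TMM factors, quasi-likelihood test), and p-values were Benjamini-Hochberg adjusted over all 18626 genes tested. A call required a 2-fold change and an adjusted p under 0.10. DESeq2 1.42.0, limma voom (limma 3.58.1), other scalings and filters, a replicate block and leaving out each sample were alternatives. The code of the fit was also run on simulated data, whose outcome is not given here and is not used as support. Samples with the same replicate number deviated together between K562/SSedit-2 and K562 (r of 0.292, 0.141, 0.252 and 0.135 over genes), so the numbers were taken to pair those samples. Between the other lines some pairs did not (r of 0.269, 0.0434, -0.00265 and 0.117 for K/VP.5 with K562, and 0.161, 0.0894, -0.0257 and -0.0947 for K562/SSedit-2 with K/VP.5), so those were not taken as paired.

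Single members were named if they were among the 10 with the largest change each way in a comparison at 1 CPM or more without overlap, were on in 1 line and at the floor in another, had the highest levels, lay next to the fold limit, or were called in both derived lines. Members outside this rule (ZNF85, ZNF154, ZNF211, ZNF274, ZNF417, ZNF563, ZNF570, ZNF585A, ZNF585B, ZNF587, ZNF780B and ZNF98) were chosen after their values were seen. Members, lists and tests were chosen with earlier results of these data known. Intervals are exact binomial and cover counting error only. No set test was run. Some marker genes of the fixed lists are not reported here.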

Additional observations from a re-analysis of the deposited data

Results flagged for a closer look

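In 5 of 112 groups of 4 samples, 1 sample lay apart from the other 3 by more of the range of the group than Dixon's 95% limit, which chance gives in about 1 of 20 groups. ZNF714 was at 38.2 CPM in K562 replicate 4 and at 44.3 to 44.7 in the other K562 samples. ZNF569 was at 3.35 CPM in K/VP.5 replicate 1 and at 2.54 to 2.66 in the other K/VP.5 samples. ZNF573 was at 3.13 CPM in K562 replicate 1 and at 3.94 to 4.04 in the others. The summed level from ZNF302 to ZNF792 was 62.6 CPM in K562 replicate 1 against 46.3 to 48.5 CPM, and that from ZNF175 to ZNF331 was 360 CPM in the same sample against 301 to 310 CPM. K562 replicate 1, which stood apart over all genes, accounted for 3 of the 5. Whether that sample was handled differently was not tested.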

How the results depend on the processing

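Without a fold limit, 101 members were higher and 20 lower in K/VP.5 relative to K562, 12 and 10 in K562/SSedit-2 relative to K562, and 19 and 85 in K562/SSedit-2 relative to K/VP.5. Upper-quartile scaling moved the median log2 fold changes to 0.37 in K/VP.5 compared to K562 and to -0.29 in K562/SSedit-2 compared to K/VP.5, and no filter on low counts moved the medians to 0.36, 0.00 for K562/SSedit-2 compared to K562 and -0.29. Members higher in K/VP.5 compared to K562 numbered 54 with no filter and 30 with a filter of 1 CPM in 4 samples, and those lower in K562/SSedit-2 compared to K/VP.5 numbered 55 and 31. Leaving out 1 sample at a time gave 43 to 45 higher and 11 to 12 lower members with a median of 0.28 to 0.32 for K/VP.5 compared to K562, 1 to 3 and 4 to 5 with 0.03 to 0.06 for K562/SSedit-2 compared to K562 (3 without K562/SSedit-2 replicate 2), and 9 to 9 and 43 to 46 with -0.26 to -0.21 for K562/SSedit-2 compared to K/VP.5. Genes gained in K/VP.5 numbered 14 to 17 and lost 0. Under settings added after seeing the data, the gained genes numbered 2 with a floor of 0 counts, 18 with a floor of 10, 9 when on meant 2 CPM and 21 when it meant 0.5 CPM, and 1 gene was lost with a floor of 10 counts. The replicate block gave 44 higher and 11 lower, 1 and 4, and 9 and 43 members in the same order of comparisons, and beyond ZNF134 it moved ZNF20 past the fold limit (1.05). Cluster medians turned for ZNF101 to ZNF254 in K/VP.5 with gaps of at most 250 kb (-0.04) and, in K562/SSedit-2 compared to K562 with gaps of at most 1000 kb, for ZNF575 to ZNF180 (-0.04) and ZNF628 to ZNF835 (0.10), since other members then entered or left the cluster. Without a change of sign, gaps of at most 1000 kb joined ZNF628 to ZNF835 with ZNF264 to ZNF446, whose median of 1.01 in K/VP.5 compared to K562 became 0.67 and whose median of -0.96 in K562/SSedit-2 compared to K/VP.5 became -0.52, and moved ZNF414 to ZNF846 from 0.39 to 0.20 in K/VP.5 compared to K562. Of 1035 alternative values for the genes named by rule in a comparison, which leave out ZNF134 in K562/SSedit-2 compared to K562 (call lost in 9 of 16, not tested in 1), 1024 kept direction and call, 10 gained a call (ZNF20, ZNF358 and ZNF586), 1 lost it (ZNF837 without K562/SSedit-2 replicate 4, -0.99) and 0 turned. Other causes of these shifts were not tested.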
